A study of Rattus norvegicus with 47 samples.

Results

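Scavenger receptors are membrane proteins with which macrophages bind and take up particles, modified lipoproteins and debris. The genes described here are Marco, Msr1, Colec12, Cd36, Scarb1, Scarb2, Cd68, Cd163 and Mrc1, 9 of the 30045 genes listed in each count table, taken by gene name because their products are known for uptake of particles and lipids. All 9 were found, each on 1 line of each table. RNA was sequenced from lung and whole blood of male Fischer 344 rats, an inbred laboratory strain, described in the labels as 250 to 300 g in weight and with no age given. In inhalation chambers for the whole body, rats breathed either filtered air or Min-U-Sil 5, a respirable dust of crystalline silica. The silica level was 15 mg/m3 and the exposure ran over 5 days of 6 h each. Tissue was collected 1 day or 6 months later. The 8 groups of tissue, time and treatment held 6 libraries each, except air lung at 6 months with 5, for 47 libraries in all. Treatment and exposure chamber cannot be told apart, since no chamber, cage or batch is given in the labels.

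In the lung, resident alveolar macrophages meet inhaled dust first. Class A receptors (Msr1, Marco and Colec12) have collagen-like stalks; Msr1 and Marco are the receptors best known for binding bare mineral particles, and Colec12 is made mainly by vascular and stromal cells. Class B receptors cross the membrane at both ends: Cd36 takes up oxidised lipoproteins and fatty acids, Scarb1 is the high-density lipoprotein receptor, and Scarb2 is a membrane protein of lysosomes. Cd68 is a heavily glycosylated protein of late endosomes and lysosomes of macrophages, Cd163 takes up haemoglobin bound to haptoglobin, and Mrc1 is the mannose receptor, a lectin of macrophages and of some endothelial cells. Cd36 is also made by capillary endothelium, platelets and adipocytes.

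Levels are given as CPM, counts relative to the library's total, scaled by TMM factors within each table and not divided by transcript length, so levels of different genes are not ranked against each other. Log2 fold changes are silica over air ± SE. Adjusted p-values come from edgeR's quasi-likelihood test with Benjamini-Hochberg adjustment over all genes tested, and "rose", "fell" or "passed" means an adjusted p under 0.05. Total estimated counts were 12.1e6 to 25.9e6 per lung library and 9.64e6 to 19.3e6 per blood library, which puts 3 counts, taken as the floor of detection, at 0.116 to 0.307 CPM. In these bulk samples a change in the number of cells of a type and a change in RNA per cell cannot be told apart.

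In the lung at 1 day, Msr1 and Cd68 rose and no receptor gene fell. Of the 9 genes 8 passed the filter on low counts, and 2 of these 8 rose, where 14.1% of the 15331 genes tested passed in either direction, 8.39% rose and 5.72% fell. An unadjusted p under 0.05 was held by 3 of the 8 (Msr1, Cd68 and Scarb1), and none of these was lower in silica; 27.9% of all genes held one. DESeq2 and limma-voom likewise called 2 higher and 0 lower. The median log2 fold change of the 8 genes was 0.07, against -0.0024 over all genes tested. By 6 months 5 of the 8 had risen (Cd68, Msr1, Mrc1, Cd36 and Scarb2) and 0 had fallen, where 16.2% of 15309 genes passed, 9.84% rose and 6.38% fell. Their median was 0.20, against -0.0080 over all genes. No gene of the 8 was lower at an unadjusted p under 0.05 at 6 months (30.6% of all genes held one in either direction), and DESeq2 and limma-voom called 0 lower.

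**Figure D1:**
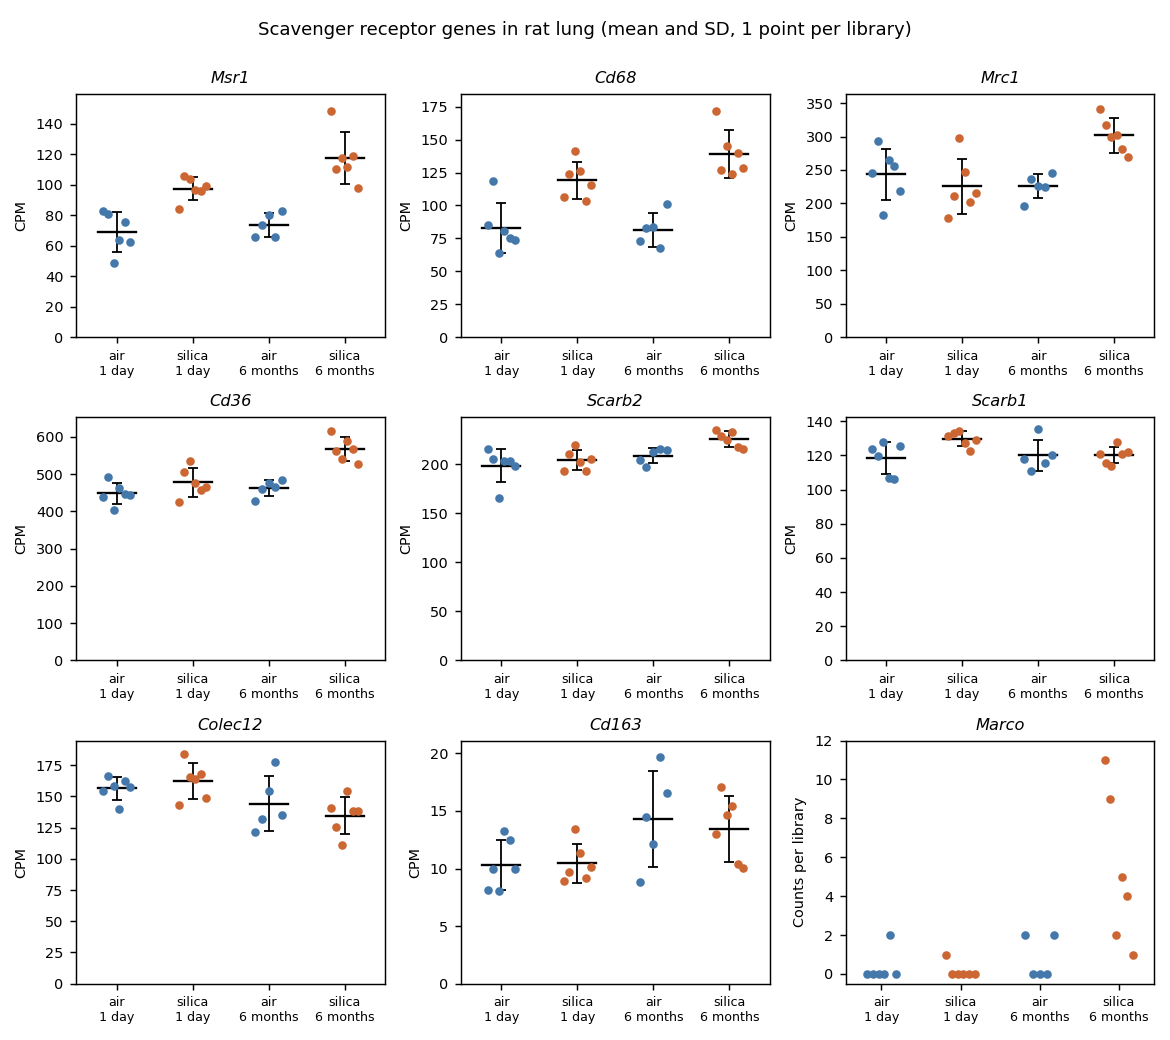
Levels of the 9 receptor genes in each lung library (vertical axes, CPM from 0; for Marco, counts per library), by treatment and time (horizontal axis). Points are libraries, bars are the mean and SD (6 libraries a group, 5 for air at 6 months; no bars for Marco). Msr1 and Cd68 were higher in silica at both times, Mrc1 and Cd36 at 6 months.

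Msr1, the class A receptor, ranged in air lung at 1 day from 48.7 to 82.7 CPM with a median of 69.7, and in silica lung from 84.2 to 106 with a median of 97.97. Every silica library lay above every air library; at 1 day this held for 5.04% of the genes tested. The means were 69.0 ± 13.05 and 97.6 ± 7.70 CPM (SD, n = 6 each), a log2 fold change of 0.50 ± 0.11 (95% interval 0.27 to 0.72, adjusted p = 0.00560). At 6 months the 5 air libraries held 65.8, 73.8, 80.1, 65.7 and 83.0 CPM, and the silica libraries 98.02 to 149 with a median of 115. Again the groups did not overlap, as for 6.96% of genes with silica higher. The log2 fold change was 0.68 ± 0.10 (95% interval 0.47 to 0.88, a 1.60-fold difference, adjusted p = 0.00072).

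Cd68, the lysosomal glycoprotein used as a general marker of macrophages, ranged in air lung at 1 day from 63.9 to 119 CPM with a median of 78.0, and in silica from 103 to 141 with a median of 120. The groups overlapped through 1 air library, animal 38, which at 119 CPM lay above 3 of the 6 silica libraries. The means were 82.9 ± 18.9 and 119 ± 14.1 CPM, and the log2 fold change was 0.53 ± 0.12 (95% interval 0.26 to 0.79, adjusted p = 0.0101). In the 6-month groups the air libraries held 73.2, 82.6, 83.5, 67.3 and 101 CPM, and the silica libraries 124 to 172 with a median of 134. The groups no longer overlapped. This was the largest fold change among the 8 genes tested, 0.77 ± 0.11 on the log2 scale or 1.71-fold (95% interval 0.55 to 1.00, adjusted p = 0.00052).

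Mrc1, the mannose receptor, gave values at 1 day that overlapped almost fully: 183 to 293 CPM in air with a median of 251, and 178 to 297 in silica with a median of 213. The log2 fold change was -0.11 ± 0.12 (95% interval -0.37 to 0.15, adjusted p = 0.616). Air libraries at 6 months held 197, 237, 225, 225 and 245 CPM, and all silica libraries lay above them, from 269 to 341 with a median of 301. The difference was 0.42 ± 0.07 on the log2 scale, or 1.34-fold (95% interval 0.27 to 0.56, adjusted p = 0.00133).

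Cd36, the class B receptor for oxidised lipoproteins and fatty acids, likewise did not pass at 1 day. Air libraries ran from 404 to 492 CPM (median 445) and silica libraries from 424 to 536 (median 471), with a log2 fold change of 0.09 ± 0.06 (95% interval -0.03 to 0.21, adjusted p = 0.316). By 6 months the groups had separated: the air libraries held 428, 459, 476, 465 and 484 CPM, all below the silica range of 527 to 617 (median 565). The log2 fold change was 0.29 ± 0.05, or 1.23-fold (95% interval 0.19 to 0.39, adjusted p = 0.00120). The deposited Cd36 counts were not whole numbers in 46 of 47 libraries, and its level is therefore uncertain. Such counts can arise where reads are shared with other sequence, and the size of any shared part was not measured. Msr1 had such counts in 12 libraries and the other 7 genes in 0.

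Scarb2, the lysosomal class B protein, showed the smallest rise that passed. At 1 day it ran from 166 to 215 CPM in air (median 203) and 193 to 219 in silica (median 204), a log2 fold change of 0.04 ± 0.05 (95% interval -0.08 to 0.16, adjusted p = 0.702). At 6 months the air libraries held 204, 197, 212, 215 and 215 CPM and the silica libraries 215 to 235 (median 226). Only 1 silica library lay within the air range. The log2 fold change was 0.11 ± 0.03, or 1.08-fold (95% interval 0.04 to 0.19, adjusted p = 0.0460). This call did not hold in 10 of the 11 fits that each left out 1 library (log2 fold changes 0.09 to 0.12, adjusted p from 0.0316 to 0.119), nor with RLE factors (adjusted p = 0.0505), upper-quartile factors (0.0600), no filter (0.0551), same-named gene models summed (0.0513) or all 4 lung groups in 1 edgeR model (0.132).

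Scarb1, the high-density lipoprotein receptor, was 106 to 128 CPM in air at 1 day (median 122) and 123 to 134 in silica (median 130). At this time 4 of 6 silica libraries lay above all air libraries, with a log2 fold change of 0.13 ± 0.05 (95% interval 0.03 to 0.24) that missed the threshold after adjustment (adjusted p = 0.0911). Air libraries at 6 months held 118, 111, 135, 116 and 120 CPM and the silica libraries 114 to 128 (median 121). The log2 fold change was 0.0032 ± 0.049 (95% interval -0.10 to 0.11, adjusted p = 0.974).

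Colec12, the class A receptor of vessels and stroma, had means of 156 ± 9.17 CPM in air and 162 ± 14.5 in silica at 1 day (log2 fold change 0.05 ± 0.06, 95% interval -0.07 to 0.17, adjusted p = 0.621). At 6 months the air libraries held 121, 132, 154, 177 and 135 CPM and the silica libraries 111 to 154 (median 138), with a difference of -0.10 ± 0.10 (95% interval -0.31 to 0.11, adjusted p = 0.541). Cd163, the receptor for haemoglobin and haptoglobin, was low: 8.09 to 13.3 CPM in air (median 9.93) and 8.93 to 13.4 in silica (median 9.90) at 1 day. Its log2 fold change there was 0.03 ± 0.14 (95% interval -0.27 to 0.32, adjusted p = 0.934). At 6 months air libraries held 8.81, 14.4, 12.1, 19.7 and 16.5 CPM and silica libraries 10.04 to 17.1 (median 13.8), a difference of -0.09 ± 0.19 (95% interval -0.51 to 0.33, adjusted p = 0.800). The Cd163 intervals are the widest of the 8 at both times.

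Marco, a class A receptor of macrophages known for binding dust, was at or near the floor in nearly every library and failed the filter in all 4 tables. At 1 day the 6 air lung libraries held 2 counts in all and the 6 silica libraries 1. At 6 months the air libraries held 2, 0, 0, 0 and 2 counts, and the silica libraries 11, 9, 2, 5, 4 and 1. The highest silica library reached 0.858 CPM, and 4 of the 6 silica libraries exceeded the floor of 3 counts while no air library did. Fitted without the filter, the edgeR log2 fold change at 6 months was 2.28 ± 0.82 (adjusted p = 0.105). In blood, Marco had 1 count in 1 silica library at 1 day and 0 in the other libraries.

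**Figure D2:**
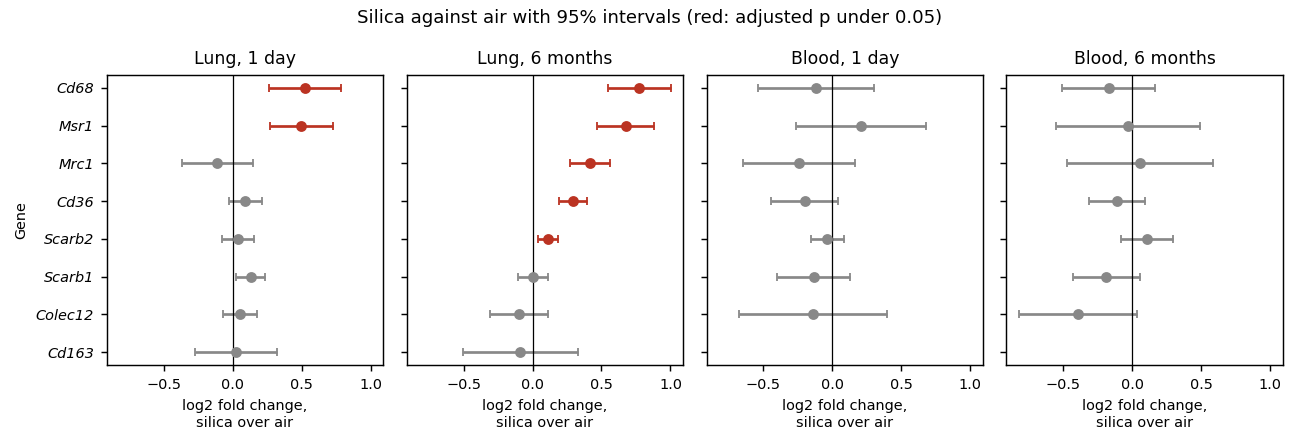
Log2 fold change of silica over air (horizontal axis) for the receptor genes tested (vertical axis) in each tissue and time. Bars are 95% intervals; red marks an adjusted p under 0.05. Cd68 and Msr1 stand to the right in lung at both times, and the blood panels hold no red point.

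Levels at the 2 times came from tables scaled separately and are set side by side without a test. For Cd68 and Msr1 the order of the group means was silica at 6 months, silica at 1 day, then the air groups, and libraries of the silica groups overlapped. The air means were 82.9 ± 18.9 and 81.5 ± 12.7 CPM for Cd68 at 1 day and 6 months, and 69.0 ± 13.05 and 73.7 ± 7.95 for Msr1, each pair within 1 SD. For Mrc1 and Cd36 silica at 6 months stood highest (302 ± 25.7 and 567 ± 32.8 CPM). The other 3 groups lay within 225 to 243 CPM for Mrc1 and 448 to 477 for Cd36, with SDs from 18.4 to 41.8 and from 21.6 to 39.2, and were not separated. Group means ran from 198 to 225 CPM for Scarb2, 118 to 130 for Scarb1, 135 to 162 for Colec12 and 10.3 to 14.3 for Cd163. Neighbours in these orders lay within the larger of their SDs, except the highest group of Scarb2 (silica at 6 months), the highest of Scarb1 (silica at 1 day) and, for Cd163, the step from the 1-day to the 6-month groups.

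Whether the silica difference itself differed between the times was tested as an interaction, the 6-month difference minus the 1-day difference. None of the 8 genes passed in edgeR, where 1.12% of 15786 genes had a larger and 0.253% a smaller value at 6 months. An unadjusted p under 0.05 was held by 2 of the 8 (Mrc1 and Cd36) and by 13.5% of all genes. For Mrc1 the interaction was 0.53 ± 0.15 on the log2 scale (95% interval 0.22 to 0.85, adjusted p = 0.0884). It passed in DESeq2 (adjusted p = 0.0281), the only one of the 8 genes to do so, and in edgeR without the air library of animal 39 at 1 day (adjusted p = 0.0289) or the silica library of animal 45 at 1 day (0.0157); over all 23 fits that left out 1 library it ran from 0.0157 to 0.177. For Cd36 it was 0.21 ± 0.08 (95% interval 0.05 to 0.36, adjusted p = 0.200). Msr1 and Cd68, higher at both times, gave 0.18 ± 0.15 (95% interval -0.13 to 0.50, adjusted p = 0.638) and 0.25 ± 0.17 (95% interval -0.11 to 0.61, adjusted p = 0.556). The rise of Mrc1 at 6 months and its absence from the calls at 1 day are therefore not shown by edgeR to differ.

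Within each library, the ratio of 2 receptors' counts does not depend on the scaling. Counts of Cd68 per count of Mrc1 were 0.294 to 0.405 in air lung at 1 day (mean 0.339 ± 0.0390) and 0.474 to 0.595 in silica (0.535 ± 0.0473), with no overlap. At 6 months the same ratio was 0.299 to 0.411 in air (0.360 ± 0.0408) and 0.400 to 0.504 in silica (0.462 ± 0.0453), and the groups overlapped. Msr1 per Mrc1 went likewise, from 0.284 ± 0.0321 in air to 0.441 ± 0.0579 in silica at 1 day, and from 0.326 ± 0.0245 to 0.389 ± 0.0343 at 6 months. Msr1 per Cd68 overlapped between the groups at both times: 0.844 ± 0.127 and 0.823 ± 0.0707 at 1 day, and 0.910 ± 0.0608 and 0.844 ± 0.0490 at 6 months. Scarb2 per Cd68 overlapped at 1 day (1.73 to 2.70 in air, 1.56 to 1.88 in silica) and did not at 6 months (2.13 to 3.20 and 1.36 to 1.88). These ratios were chosen after the levels were seen and are given without a test.

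**Figure D3:**
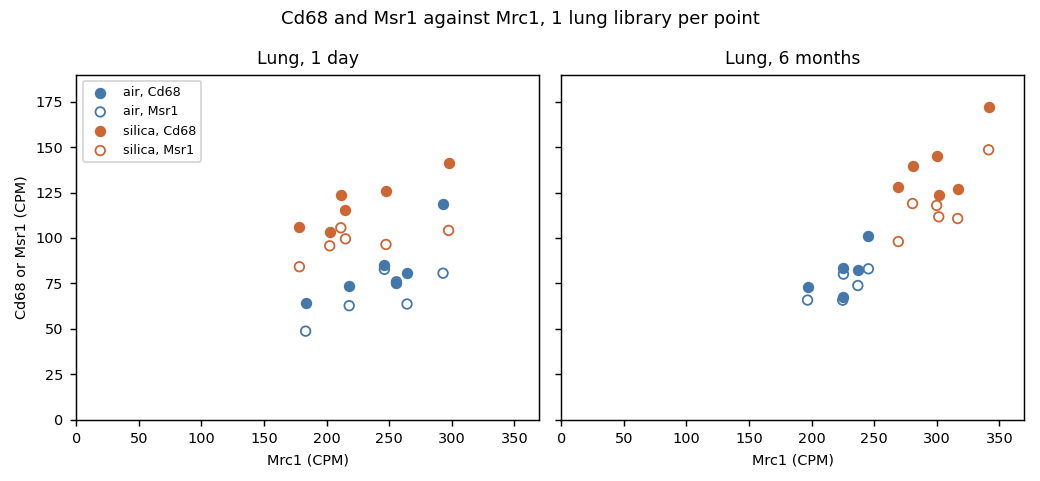
Cd68 (filled) and Msr1 (open) against Mrc1, all in CPM, with 1 lung library per point; air is blue and silica orange. At 1 day Cd68 per Mrc1 and Msr1 per Mrc1 were higher in every silica library than in every air library. The range of Mrc1 was similar (178 to 297 CPM in silica), and Cd68 itself overlapped between the groups. At 6 months the silica points of each gene lie both above and to the right of its air points.

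Promoter sequence is shown for Cd68, Mrc1 and Cd36, the genes without overlap between silica and air at 6 months for which RefSeq's table for GRCr8 held an entry. In all 7 of the 9 genes had one; Msr1 and Scarb1 did not. Each is the 250 bases before the gene's start, read 5′ to 3′ on the gene's strand. Capitals mark the AP-1 motif TGANTCA and the PU.1 core GAGGAA, on either strand (a PU.1 core on the opposite strand reads TTCCTC). The AP-1 motif stood in Cd68 alone of the 7 (6.34% of 33469 promoter windows of this length hold it), and the PU.1 core in 5 of 7, Marco, Cd36, Colec12, Cd68 and Mrc1 (23.3% of windows). The E-box CACGTG (5.59% of windows) and the PPAR half-site AGGTCA (14.1%) were in 0 of the 7. These matches describe letters in the window only, and the motifs were chosen after the sequences were seen. The Cd68 window is chr10:54882442-54882691 on the minus strand, that of Mrc1 chr17:82157475-82157724 on the plus strand and that of Cd36 chr4:18246332-18246581 on the plus strand.
Cd68: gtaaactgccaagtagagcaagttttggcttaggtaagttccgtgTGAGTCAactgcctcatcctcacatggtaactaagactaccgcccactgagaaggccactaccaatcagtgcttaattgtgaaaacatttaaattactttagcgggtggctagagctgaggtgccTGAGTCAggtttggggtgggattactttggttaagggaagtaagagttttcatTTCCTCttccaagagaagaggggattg
Mrc1: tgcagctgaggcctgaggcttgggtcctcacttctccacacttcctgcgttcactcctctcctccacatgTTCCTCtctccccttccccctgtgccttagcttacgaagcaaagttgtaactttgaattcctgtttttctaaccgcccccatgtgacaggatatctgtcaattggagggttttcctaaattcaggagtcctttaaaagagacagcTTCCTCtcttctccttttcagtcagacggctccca
Cd36: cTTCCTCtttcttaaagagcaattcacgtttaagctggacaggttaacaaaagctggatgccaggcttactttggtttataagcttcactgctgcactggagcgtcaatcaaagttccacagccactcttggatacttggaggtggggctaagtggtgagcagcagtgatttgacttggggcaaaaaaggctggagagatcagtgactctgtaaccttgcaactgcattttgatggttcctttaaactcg

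Some of the receptor genes varied together among animals of the same group. After subtracting each group's mean log2 CPM, Cd36 and Mrc1 had a Pearson r of 0.85 over the 23 lung libraries (Spearman rho 0.76, permutation adjusted p = 0.00028 and 0.00187 over 28 pairs). Without the 2 libraries farthest from the median of Cd36 r was 0.77. Msr1 and Cd68 had r = 0.78 (rho 0.78, permutation adjusted p = 0.00093 and 0.00168; 0.71 without 2 libraries). Among Cd68, Msr1, Mrc1, Cd36 and Scarb2 r ran from 0.55 to 0.85, and 9 of their 10 pairs passed for both measures; Scarb2 with Cd68 did not (r = 0.55, rho 0.50, permutation adjusted p = 0.0965 and 0.0509). Cd163 was closest to Mrc1 (r = 0.62, rho 0.68, permutation adjusted p = 0.00152 and 0.00406; 0.66 without 2 libraries). Scarb1 and Colec12 had lower values with the others, r from -0.40 to 0.34 and from -0.03 to 0.43, and no pair of either passed for r. Colec12 with Cd36 passed for rho alone (rho 0.54, permutation adjusted p = 0.0301). In all 12 of the 28 pairs passed for r, and 11 for both measures. The share of passing pairs among all genes was not computed, so these counts are not shown to be particular to the receptors. Each library is a piece of mixed tissue and shares the scaling of its table, and the part of either in these correlations was not tested.

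**Figure D4:**
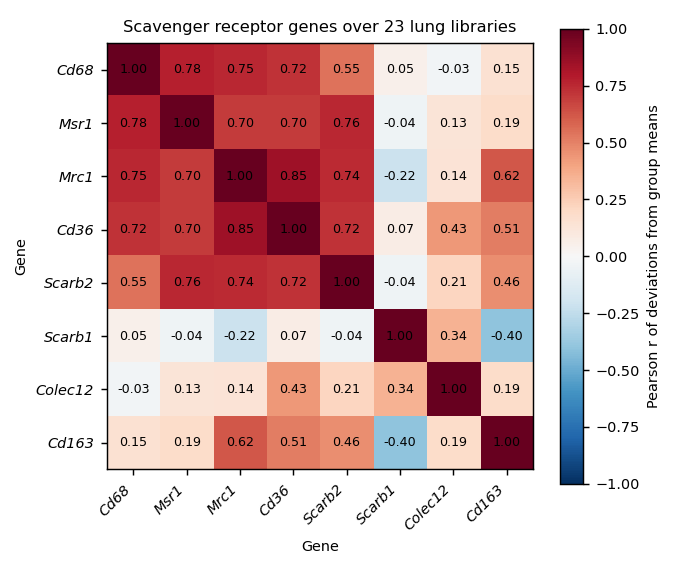
Pearson r (colour scale from -1 to 1, value in each cell) between 8 receptor genes, from deviations of log2 CPM from group means over 23 lung libraries. Cd68, Msr1, Mrc1, Cd36 and Scarb2 form a block of r from 0.55 to 0.85, and Scarb1 and Colec12 lie outside it.

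Over the same 23 libraries, the genes whose deviations were most like each receptor's were searched among 11236 genes with a mean of at least 5 CPM. For Cd68 they were Pld3 (r = 0.94), Gpnmb (0.93) and Hexa (0.93), and for Msr1 Lamp2 (0.91), Mmp12 (0.90) and Gpnmb (0.90). For Mrc1 they were Dab2 (0.94), Pcsk1 (0.92) and Stom (0.92). Cd36 was most like Sft2d2 (0.88), Alcam (0.87) and Mrc1 itself (0.85), and Scarb2 like Alcam, Cnot6 and Gda (0.88 each). The nearest to Colec12 were Upk1b (0.92), Chst4 (0.91) and Gpc3 (0.88), and to Cd163 Dpysl2 (0.82), Lpin2 (0.81) and Crispld2 (0.81). Scarb1 had the weakest neighbours, Blvrb (0.77), Sf3b6 (0.76) and Sbds (0.75).

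Genes around the receptors were read from 7 lists. Their counts in lung stand beside shares over all genes tested of 8.39% higher and 5.72% lower at 1 day. At 6 months these shares were 9.84% and 6.38%. Of other scavenger receptors 12 were tested; 2 rose and 2 fell at each time. The 2 that fell at 1 day became 1 without animal 42 in air or 48 in silica, and with 1 library left out the 6-month counts ran from 1 to 3 higher and from 0 to 2 lower. Olr1, the lectin-like receptor for oxidised lipoprotein, fell at 1 day (-0.66 ± 0.13, adjusted p = 0.00278) and rose at 6 months (0.41 ± 0.12, adjusted p = 0.0371, not held when 1 of 6 libraries was left out: animals 49, 51, 52 and 53 in air or 60 and 62 in silica, nor with robust dispersions). Of 17 other uptake receptors, such as Fc and complement receptors, 4 rose and 6 fell at 1 day, and 7 rose and 1 fell at 6 months (4 fell without animal 61 in silica, and 2 without animal 51 or 54 in air). Itgax, the alpha chain of complement receptor 4, rose at both (0.55 ± 0.07 and 0.84 ± 0.10, adjusted p = 7.9e-05 and 0.00017), and Fcgr3a, an Fc receptor, fell at 1 day (-0.62 ± 0.06, adjusted p = 9.12e-06) and did not pass at 6 months (-0.09 ± 0.08, adjusted p = 0.482). Signalling partners of the receptors (13 tested) gave 4 higher and 1 lower at 1 day, led by Tlr2, which senses microbial lipoproteins beside Cd36 (0.69 ± 0.07, adjusted p = 2.28e-05), and 5 higher and 0 lower at 6 months, led by Vav1 (0.40 ± 0.05, adjusted p = 0.00041). The 1 lower at 1 day became 2 without animal 37 or 40 in air or 47 in silica. Over the fits that left out 1 library, the 5 higher at 6 months ranged from 3 to 6; it was 3 without any of animals 49, 51, 52 and 53 in air or 58, 59, 60 and 62 in silica.

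Lipid and lysosome genes downstream of uptake gave different counts at the 2 times. Of 13 lipid genes 3 rose and 5 fell at 1 day (median log2 fold change -0.11, against -0.0024 over all genes tested). At 6 months 10 rose and 0 fell (median 0.36, against -0.0080 over all genes tested). Fabp4, a fatty acid carrier, fell at 1 day (-0.82 ± 0.14, adjusted p = 0.00135) and rose at 6 months (1.27 ± 0.22, adjusted p = 0.00207). Abca1, a cholesterol exporter, fell at 1 day (-0.52 ± 0.09, adjusted p = 0.00097) and did not pass at 6 months (0.14 ± 0.05, adjusted p = 0.111); Soat1, which esterifies cholesterol, rose at both times (0.29 ± 0.05 and 0.53 ± 0.08, adjusted p = 0.00192 and 0.00072). The 5 lipid genes that fell at 1 day became 3 without animals 37 or 38 in air or 47 or 48 in silica. Of 12 lysosomal genes, 0 rose (1 without animal 38 in air) and 1 fell at 1 day (Ctsd, a cathepsin, -0.39 ± 0.10, adjusted p = 0.0180). At 6 months 0 fell and 9 rose, among them Ctsd (0.51 ± 0.09, adjusted p = 0.00222), Ctss (0.56 ± 0.08, adjusted p = 0.00052) and Psap (0.34 ± 0.05, adjusted p = 0.00068). The interaction between the times passed for 6 of the 13 lipid and 5 of the 12 lysosomal genes, all with the larger value at 6 months. Of all 15786 genes tested 1.12% passed in that direction. Fabp4 (2.09 ± 0.27, adjusted p = 0.00029) and Ctsd (0.91 ± 0.15, adjusted p = 0.00187) were among the lipid and lysosomal genes that passed.

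Genes that work beside Cd163 moved while Cd163 did not pass. Of 9 haemoglobin and iron genes 3 rose and 2 fell at 1 day, and 6 rose and 0 fell at 6 months. Hp, the haptoglobin that Cd163 binds with haemoglobin, rose by 1.02 ± 0.08 and 0.99 ± 0.08 on the log2 scale (adjusted p = 1.68e-06 and 1.95e-05), and Hmox1, which degrades haem, by 0.54 ± 0.10 and 1.06 ± 0.12 (adjusted p = 0.00178 and 0.00013). Among 12 transcription factors of macrophages, 4 rose and 1 fell at 1 day, led by Tfec (0.60 ± 0.10, adjusted p = 0.00112), and 6 rose and 0 fell at 6 months, led by Bhlhe41 (0.82 ± 0.09, adjusted p = 0.00012). The 1 that fell at 1 day became 0 without any of animals 38, 41 or 42 in air or 43, 44 or 48 in silica.

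Markers of other cell types moved in both directions. Of all genes tested in lung 8.39% rose and 5.72% fell at 1 day, and 9.84% rose and 6.38% fell at 6 months. Of 9 alveolar macrophage markers (6 of which also stand on the lists above) 3 rose and 3 fell at 1 day, with a summed level of 480 to 732 CPM in air and 462 to 630 in silica; at 6 months 9 of 9 rose, from 462 to 591 CPM in air to 720 to 947 in silica. These alveolar macrophage markers were not particular to lung. In blood at 1 day the same 9 genes summed to 350 to 423 CPM in air and 352 to 418 in silica. There 1 of the 5 tested rose, where 1.19% of all genes did. Interstitial macrophage markers gave 4 higher and 1 lower of 9 at 1 day in lung (462 to 501 and 467 to 501 CPM) and 6 higher and 1 lower at 6 months (488 to 531 and 510 to 567). Of 7 monocyte markers tested 1 rose at 1 day, and 1 rose and 3 fell at 6 months. Of 7 neutrophil markers tested 5 rose at 1 day (104 to 234 CPM summed in air, 282 to 642 in silica) and 2 at 6 months (201 to 311, 409 to 597). The median log2 fold change of the 7 was 0.98 at 1 day and 0.16 at 6 months, so the 6-month sums do not stand for most of these markers. Blood endothelial markers, of cells that also make Cd36, fell in 5 of 9 at 1 day (3969 to 4343 CPM in air, 3602 to 3960 in silica) and in 7 of 9 at 6 months (4031 to 4455, 3211 to 3761). Of 6 alveolar type 2 cell markers 1 rose and 1 fell at 1 day (13319 to 16175 CPM in air, 12866 to 15735 in silica), and 5 rose at 6 months (12226 to 15076, 16668 to 18889). Among lymphatic endothelial (6), fibroblast (8), adipose (2), erythroid (5) and platelet (3) markers tested, 0 rose at either time; 1, 2, 1, 5 and 1 fell at 1 day and 1, 2, 0, 1 and 0 at 6 months. Defining markers with at most 3 counts in every lung library were Plin1, an adipocyte protein, and Ltf, a neutrophil granule protein. The part of these cell types in the receptor results was not tested.

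In blood no receptor gene passed at either time. Of the 9 genes 7 passed the filter (Marco and Cd163 did not), and 0 of 7 was called at 1 day, where 1.19% of 12253 genes rose and 0.18% fell. At 6 months 0 of 7 was called, where 0.0086% of 11629 genes, a single gene, were, and 8.7% had an unadjusted p under 0.05. None of the 7 had an unadjusted p under 0.05 in edgeR at either time, and DESeq2 and limma-voom called 0. For 1 day the share of all genes under that level is not given. There Cd36 stood first of the 7 in the edgeR order of all 12253 genes, at rank 2426. Air and silica overlapped for all 7 at both times, where 1.93% of genes at 1 day and 0.378% at 6 months did not. Adjusted p-values ran from 0.498 to 0.868 at 1 day and from 0.595 to 0.982 at 6 months. Median log2 fold changes of the 7 were -0.14 and -0.11, against -0.010 and -0.0087 over all genes.

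Cd36 was the receptor with the narrowest interval after Scarb2 at 1 day. It ran from 71.1 to 107 CPM in air (median 96.0) and from 64.7 to 89.5 in silica (median 80.4), overlapping, with a log2 fold change of -0.20 ± 0.11 (95% interval -0.44 to 0.04, adjusted p = 0.498). At 6 months it was 111 ± 12.7 in air and 103 ± 14.7 in silica (-0.11 ± 0.10, 95% interval -0.31 to 0.09). Summed platelet markers, of cells that carry Cd36, were 1853 to 2831 CPM in air (median 2228) and 1195 to 2471 in silica (median 2297) at 1 day, and 0 of 6 passed. Of 7 neutrophil markers tested in blood 4 rose at 1 day. Their sums, 2092 to 2699 CPM in air and 3447 to 4254 in silica, did not overlap. Of 7 monocyte markers tested in blood 0 passed at either time. Monocyte sums overlapped, at 1022 to 1313 CPM in air and 896 to 1263 in silica at 1 day. At 6 months they were 964 to 1142 in air and 778 to 1057 in silica. The part of these cell types in the receptor values was not tested. Cd68 was 29.8 ± 8.22 CPM in air and 27.3 ± 7.73 in silica at 1 day (-0.12 ± 0.20, 95% interval -0.54 to 0.30), and 30.9 ± 6.05 and 27.6 ± 6.579 at 6 months (-0.17 ± 0.16, 95% interval -0.51 to 0.16). Colec12 had the largest fitted difference in blood, -0.39 ± 0.20 at 6 months (95% interval -0.82 to 0.04, adjusted p = 0.595), from 4.08 to 8.34 CPM in air and 2.39 to 6.67 in silica. Scarb1 was 21.5 ± 4.03 and 19.5 ± 2.94 CPM at 1 day, and 18.6 ± 1.996 and 16.4 ± 3.12 at 6 months (-0.19 ± 0.11, 95% interval -0.43 to 0.05). Scarb2 stood at 21.6 ± 1.17 and 21.1 ± 1.52 CPM at 1 day (-0.04 ± 0.06, 95% interval -0.16 to 0.08), and at 17.3 ± 2.53 and 18.6 ± 1.31 at 6 months (0.11 ± 0.09, 95% interval -0.08 to 0.30). Msr1 and Mrc1 were low in blood, with 13 to 44 counts per library at 1 day; their means were 1.58 ± 0.394 and 1.78 ± 0.431 CPM in air. Their intervals at 1 day ran from -0.26 to 0.68 and from -0.65 to 0.16, and that of Msr1 includes the lung's 0.50. Cd163 had 0 to 2 counts in any air library and 0 in every silica library.

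**Figure D5:**
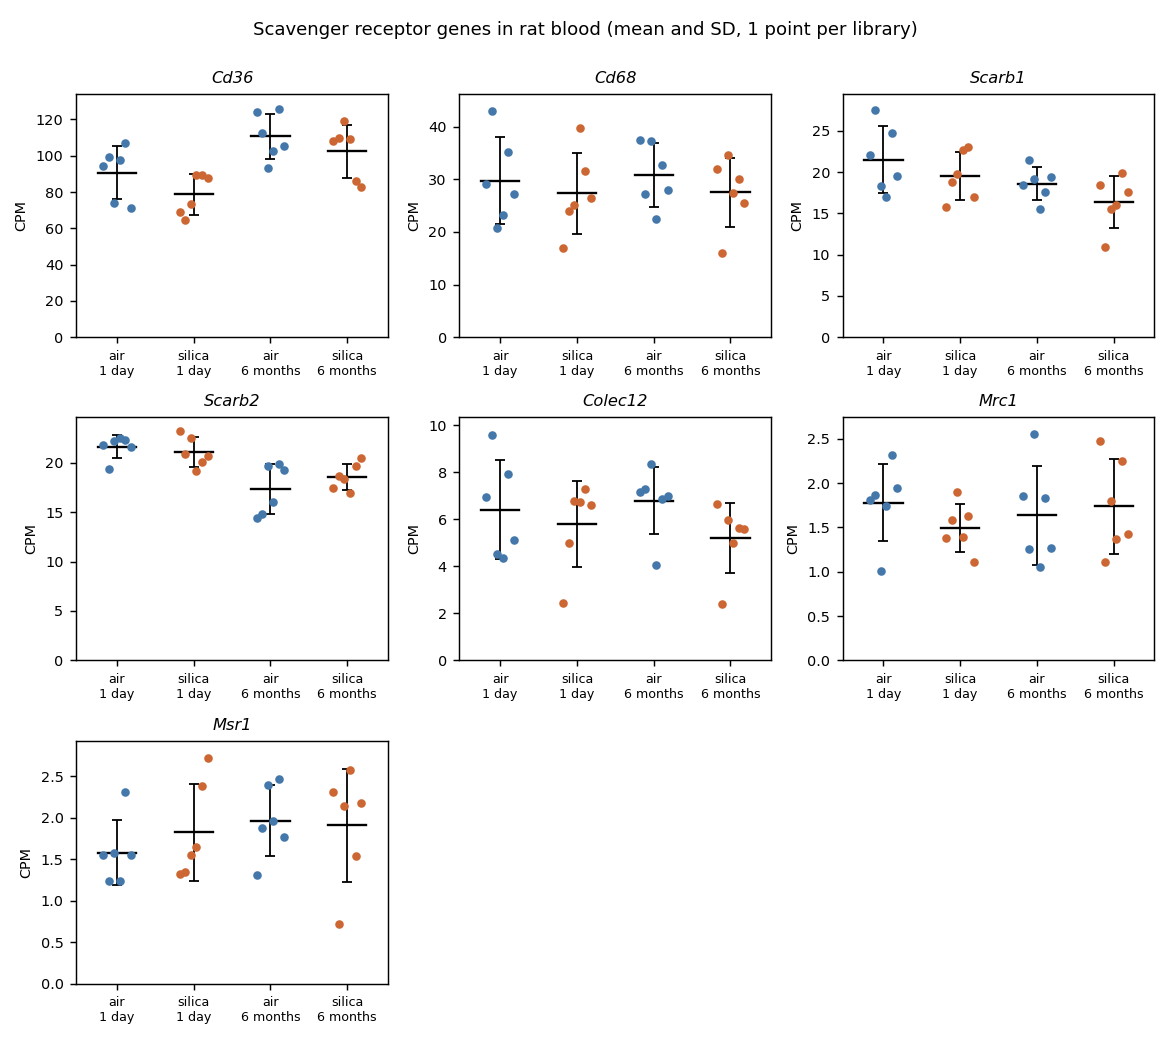
Levels of the 7 receptor genes tested in blood (vertical axes, CPM from 0) by treatment and time (horizontal axis), 6 libraries a group. Points are libraries and bars the mean and SD. Air and silica points overlap in every panel.

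Every lung library held more CPM than every blood library for 8 of the 9 genes, in tables scaled separately and from blood depleted of globin RNA. The same held for 67% of the 15970 genes tested in any of the 4 tables, so this order is common. Mrc1 was 178 to 341 CPM in lung and 1.00 to 2.56 in blood, Msr1 48.7 to 149 and 0.716 to 2.72, Cd163 8.09 to 19.7 and 0 to 0.111, and Cd36 404 to 617 and 64.7 to 126. Cd68 was nearest, at 63.9 to 172 CPM in lung and 15.9 to 43.1 in blood.

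The silica difference in lung minus that in blood was tested for the 7 genes that passed the filter in both tissues. At 1 day 0 of 7 passed in edgeR, where 4.03% of 15989 genes did. Cd68 came nearest (0.60 ± 0.24, 95% interval 0.10 to 1.104, adjusted p = 0.186). It was the only one with an unadjusted p under 0.05, which 17.5% of all genes held. At 6 months 1 of 7 passed, where 3.53% of 15790 genes did. That was Cd68, with a log2 fold change larger by 0.92 ± 0.20 in lung (95% interval 0.51 to 1.34, adjusted p = 0.0110). With the animal number as a block, over 9 animals with both tissues, the difference was 0.92 and the adjusted p 0.0851, so the call was lost. Cd36 (0.38 ± 0.12, 95% interval 0.14 to 0.62, adjusted p = 0.0752) passed only without the blood air library of animal 53 (adjusted p = 0.0355) or the blood silica library of animal 60 (0.0396). Msr1, which rose in lung, gave 0.67 ± 0.25 (95% interval 0.14 to 1.19, adjusted p = 0.158). The silica difference between the times in blood passed for 0 of 12444 genes in edgeR (10.7% at an unadjusted p under 0.05, 0 of the 7 receptor genes among them). DESeq2 called 85 genes and 0 of the 7, but gave no adjusted p for some receptor genes of low count, Msr1 and Mrc1 among them.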

How the data were processed

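RNA was measured in 23 lung and 24 blood libraries. The deposited tables hold estimated counts per gene, not normalized; per the submitters' processing notes the tools were bcl2fastq 2.19, cutadapt 3.4, Trim Galore 0.6.7, STAR 2.6.1d and Salmon 1.10.1, with build Rnor_6.0. Per the labels' protocols, stranded libraries were made from mRNA, and globin RNA was depleted from blood. Counts were rounded here. All columns matched samples by title, 0 left over. edgeR 4.0.16 in R 4.3.3 fitted each table alone (TMM, filterByExpr minimum count 10, threshold 0.05), after tests on simulated data; interactions used 4-group models. SE was derived from the fold change and F. CPM floors cover counting error only. Pairs of replicates differed beyond sampling noise (chi-square per degree of freedom 3.76 to 35.3 over 115 pairs). Animal numbers in titles, read as the same rat in both tissues, gave the block; same-numbered lung and blood deviations correlated from -0.086 to 0.18 at 1 day (3 of 12 above 0.1) and -0.082 to 0.092 at 6 months (0 of 9). Alternatives used DESeq2 1.42.0, limma-voom (limma 3.58.1), other scaling, filters, dispersions, models and each library left out. The members and lists were chosen with earlier results of these data known. Named beside the 9 receptors were up to 3 genes per list and time with the smallest p, and the 3 most alike genes per receptor. Marker genes Adgre1 and Ccr2 were not found by name, and a gene that the rule names is not reported here. Correlations used 100000 permutations within groups.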

Additional observations from a re-analysis of the deposited data

Results flagged for a closer look

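In 4 of 61 combinations of receptor gene and group of 4 to 10 samples, 1 library lay far from the others; chance flags about 1 in 20 groups. Scarb2 in air lung at 1 day was lowest in animal 39, at 166 CPM against 198 for the next. Scarb2 in air blood at 1 day was lowest in animal 38, at 19.3 CPM against 21.6. Msr1 in air blood at 1 day was highest in animal 41, at 2.32 CPM against 1.58. Colec12 in air blood at 6 months was lowest in animal 54, at 4.08 CPM against 6.87. The difference between tissues at 6 months was a further result of this kind: the silica difference of Cd68 was larger in lung than in blood by 0.92 on the log2 scale (edgeR adjusted p = 0.0110), with 6 of 6 silica lung libraries above all air lung libraries, and the call was lost with the animal as a block.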

How the results depend on the processing

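Msr1 and Cd68 kept their calls in lung at both times, and Mrc1 and Cd36 at 6 months, in every fit that left out 1 library and under all 10 other settings; for lung at 1 day the leave-one-out adjusted p ran from 0.00409 to 0.0172 for Msr1 and from 0.00023 to 0.0291 for Cd68. DESeq2 called 360 genes in blood at 1 day, 2 in blood at 6 months, 351 in the lung interaction between times (1 receptor higher) and 85 in the blood interaction. The replicate block called 415 genes at 1 day and 202 at 6 months in the tissue comparison, with 0 receptors higher at 6 months; it changed no other receptor call. Scarb1 at 6 months turned to -0.0063 with upper-quartile factors, -0.00039 with all 4 groups in 1 model and -0.00080 with gene models summed. With each library left out, calls ran from 86 to 211 in blood at 1 day, 0 to 1 in blood at 6 months, 0 to 3 in the blood interaction and 332 to 609 in the tissue comparison at 6 months; receptors higher ran from 0 to 1 in the lung interaction and 1 to 2 in the tissue comparison at 6 months. Log2 fold changes that were not called changed sign: in lung, Cd163 (-0.063 to 0.105) and Scarb2 (-0.0091 to 0.062) at 1 day, and Cd163 (-0.227 to 0.0509) and Scarb1 (-0.0276 to 0.0463) at 6 months; in blood, Cd68 (-0.262 to 0.0198) and Colec12 (-0.230 to 0.0162) at 1 day, and Msr1 (-0.136 to 0.146) and Mrc1 (-0.0722 to 0.243) at 6 months. So did the interactions of Cd163 in lung (-0.248 to 0.0318), of Cd68 (-0.181 to 0.0963) and Scarb1 (-0.129 to 0.0450) in blood, and in the tissue comparison Mrc1 (-0.0140 to 0.198) and Scarb2 (-0.0126 to 0.0902) at 1 day and Scarb2 (-0.0640 to 0.0281) at 6 months. The causes of these changes were not tested. No mitochondrial gene was found by name, so that alternative left out 11 globin and erythroid genes alone. Low counts limited what could be read for Marco in all tables, and for Cd163, Msr1 and Mrc1 in blood. The cause of these low counts was not tested.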
